A study of Mus musculus with 6 samples.

Results

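The 7 genes described here, Meox1, Meox2, Tcf15, Car4, Rgcc, Cd300lg and Aqp1, are known from capillary endothelium, and their expression was followed in blood vessel endothelium isolated by cell sorting from mouse intestine. They were given as a list of symbols, and for each gene the probe set assigned to that symbol alone was used. Had a gene had several such probe sets, 1 would have been selected on its mean over the 6 arrays, but each of the 7 had 1. All 7 lay above background on every array and so were among the 15287 genes tested, of 22180 genes with a singly assigned probe set. The list was put together with earlier results of these arrays known, so the number of its members that changed describes the list and is not independent evidence about capillaries.

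The series holds 6 arrays, 3 with the genotype Apcfl//fl; Villin-CreERT2 (KO) and 3 controls labelled WT, Apcfl//fl, all of mixed C57BL/6 x 129 background. Both groups thus carry floxed Apc, the negative regulator of Wnt signalling, and the labels name no Cre for the controls. All mice received tamoxifen over 5 days, with harvest on day 6, and the labels used here do not give their age. The villin promoter drives the recombinase in intestinal epithelium, so that Apc was deleted in the neighbours of the endothelium and not in the sorted cells. Cells were sorted on CD31 after removal of cells positive for CD45, EpCAM or gp38, and each array holds 1 biological replicate. Nothing in the labels says whether a replicate is 1 mouse or a pool. Endothelium of capillaries, arteries and veins was sorted together, so fewer cells of 1 type and less RNA per cell cannot be told apart.

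Capillary endothelium exchanges gas, water, nutrients and lipid between blood and tissue, and its transcription factors, surface enzymes and channels differ from those of arteries and veins. MEOX1 and MEOX2 are related homeodomain transcription factors that restrain endothelial growth, and MEOX2 forms a heterodimer with the basic helix-loop-helix factor TCF15 (paraxis) that drives fatty acid uptake genes in heart capillaries. CAR4 is a carbonic anhydrase anchored to the outer face of capillary endothelium, AQP1 is a water channel, CD300LG (nepmucin) is a mucin-like glycoprotein that can bind L-selectin, and RGCC is a cell cycle regulator induced by growth signals and hypoxia.

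The 250 bases before the transcription start are shown for the 3 members whose groups did not overlap and that had an entry in the RefSeq promoter table (GRCm38.p6), since Car4 and Rgcc stood higher in the knockout and Meox2 lower. Car4 lies on the forward strand (chr11:84957504-84957753), Rgcc on the reverse strand (chr14:79301636-79301885) and Meox2 on the forward strand (chr12:37108290-37108539). Capitals mark matches, on either strand, to the E-box CANNTG read by basic helix-loop-helix factors, the homeodomain core TAATTA, the ETS core GGAAGT, the hypoxia response core ACGTG and the TATA box TATAAA.
Car4: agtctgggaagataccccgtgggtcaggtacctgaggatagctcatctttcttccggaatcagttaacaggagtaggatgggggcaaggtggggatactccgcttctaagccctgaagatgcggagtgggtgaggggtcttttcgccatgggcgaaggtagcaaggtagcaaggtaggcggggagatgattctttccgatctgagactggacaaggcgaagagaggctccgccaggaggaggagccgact
Rgcc: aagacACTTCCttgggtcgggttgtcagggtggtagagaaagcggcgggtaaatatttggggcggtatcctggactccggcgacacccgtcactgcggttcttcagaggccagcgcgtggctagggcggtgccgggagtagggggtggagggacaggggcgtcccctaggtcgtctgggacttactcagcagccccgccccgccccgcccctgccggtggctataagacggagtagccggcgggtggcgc
Meox2: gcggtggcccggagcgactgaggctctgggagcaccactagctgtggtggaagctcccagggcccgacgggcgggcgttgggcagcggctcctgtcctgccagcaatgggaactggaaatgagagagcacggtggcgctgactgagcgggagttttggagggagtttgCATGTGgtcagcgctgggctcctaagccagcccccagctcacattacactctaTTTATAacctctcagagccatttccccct
The Car4 window held none of the 5 motifs. That of Rgcc held 1 ETS core, on the reverse strand of the gene, whose first letter lay 245 bases before the start. That of Meox2 held 1 E-box 82 bases and 1 TATA box 29 bases before the start, the latter on the opposite strand. Of 32851 promoter windows of this length, 66.2% held an E-box, 19.7% the ETS core, 16.6% the hypoxia core, 12.4% the TATA box and 4.84% the homeodomain core. An E-box and a hypoxia core can share letters. These matches describe letters and are not evidence of binding. Of the other members, Aqp1 was matched in the table, and Meox1, Tcf15 and Cd300lg were not.

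The 7 genes went in both directions. In the knockout Meox1 and Car4 rose, Meox2 and Tcf15 fell, and Rgcc, Cd300lg and Aqp1 did not pass an adjusted p of 0.05. Among all genes tested, 2.61% passed (1.13% higher and 1.48% lower), and 2512 of the 15287 had an unadjusted limma p under 0.05. The list counts below are to be set beside these shares. The members' log2 changes ran from -0.77 to 0.95 around a median of 0.26, against a median of -0.017 over all genes, and the median size of their change was 0.61 against 0.15. The groups did not overlap for 5 of the 7, with 3 higher and 2 lower, while 22.1% of all genes had groups that did not overlap (9.79% higher and 12.3% lower). The count of 4 members became 2 without knockout 2 or without control 3, 1 without knockout 3 or without control 2, and 3 without control 1.

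**Figure D1:**
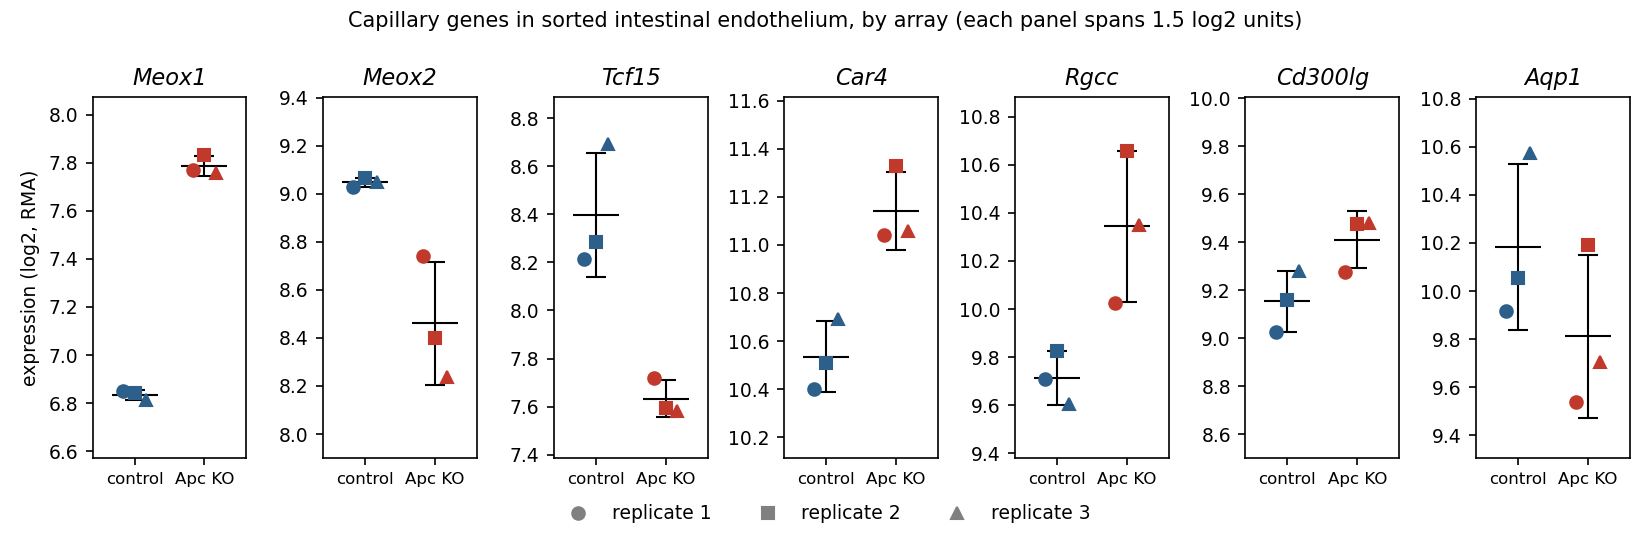
Expression of the 7 genes on each array, as log2 values after RMA on the y axis, for 3 control arrays (blue) and 3 Apc knockout arrays (red). Symbols give the replicate number, by which arrays were not paired in the main comparison. Bars are the mean and SD. The 2 groups of Meox1 are each within 0.073, and the groups of Cd300lg and Aqp1 overlap.

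Meox1, the first of the MEOX factors, was at 7.77, 7.83 and 7.76 on the knockout arrays and at 6.85, 6.84 and 6.81 on the control arrays, as log2 values. The knockout arrays were all higher, and the gap of 0.91 between the groups exceeded the range within either (0.073 and 0.037). The means were 7.79 ± 0.040 and 6.83 ± 0.019 (SD, n = 3 each), a 1.94-fold rise (log2 change 0.95 ± 0.10, SE, adjusted p = 0.00374). Only 56 genes of the 15287 tested had a larger rise. The call held with each array left out in turn, with changes between 0.93 and 0.97 and adjusted p-values up to 0.0251.

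Meox2, its relative, went the other way. It was at 8.74, 8.40 and 8.24 in the knockout and at 9.03, 9.06 and 9.05 in the control. The controls lay within 0.036 of each other, whereas the knockout arrays spread over 0.50 with knockout 1 nearest to the controls. The means were 8.46 ± 0.26 and 9.05 ± 0.018 (SD, n = 3 each), 1.5-fold lower in the knockout (log2 change -0.59 ± 0.13, adjusted p = 0.0475). This call was close to the threshold, and it held with 1 of the 6 arrays left out, knockout 1 (-0.73, adjusted p = 0.0207). Without knockout 2 or 3 or any of the controls the adjusted p lay between 0.0885 and 0.138, with changes from -0.60 to -0.48.

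The difference between both genes on each array removes what an array adds to both. Meox1 minus Meox2 was -0.97, -0.57 and -0.48 on the knockout arrays and -2.18, -2.22 and -2.24 on the control arrays, on the log2 scale. The groups did not overlap, and the difference was 1.54 larger in the knockout. This separation follows from the values of each gene above and is a description, with no test.

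Tcf15, the partner of MEOX2, was at 7.72, 7.59 and 7.58 in the knockout and at 8.21, 8.28 and 8.69 in the control. The knockout arrays lay close together below all controls, and control 3 stood above the other controls. The means were 7.63 ± 0.077 and 8.40 ± 0.26 (SD, n = 3 each), a 1.70-fold fall (log2 change -0.77 ± 0.14, adjusted p = 0.0253). The call held without control 1 (adjusted p = 0.0191) and was lost without any other array, with adjusted p-values from 0.0541 without control 2 to 0.101 without knockout 3. The change stayed between -0.86 and -0.62.

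Car4 was at 11.04, 11.33 and 11.06 in the knockout and at 10.40, 10.51 and 10.69 in the control. All knockout arrays were above all controls, by at least 0.35, a gap slightly above the range within each group (0.29 in both). The means were 11.14 ± 0.16 and 10.53 ± 0.15 (SD, n = 3 each), a 1.52-fold rise (log2 change 0.61 ± 0.098, adjusted p = 0.0178). The change stayed between 0.51 and 0.69 with single arrays left out, and 2 of them ended the call, knockout 3 (adjusted p = 0.0576) and control 2 (adjusted p = 0.0569).

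Rgcc was at 10.03, 10.66 and 10.35 in the knockout and at 9.71, 9.83 and 9.60 in the control. The groups did not overlap, and the knockout arrays spread over 0.63, more than the controls did (0.22). With means of 10.34 ± 0.32 and 9.71 ± 0.11 (SD, n = 3 each), the log2 change was 0.63 ± 0.14 and just missed the threshold (adjusted p = 0.0546). Without knockout 1, the lowest of its group, it was 0.79 (adjusted p = 0.0251), and without any other array it lay between 0.47 and 0.69 (adjusted p from 0.0965 to 0.171).

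Cd300lg was at 9.28, 9.48 and 9.48 in the knockout and at 9.03, 9.16 and 9.28 in the control. Knockout 1 lay level with control 3, so that the groups touched. The log2 change was 0.26 ± 0.096 (adjusted p = 0.22). Cd300lg and Meox1 are close on chromosome 11, with 8 annotated genes between them. Of these, 5 had a singly assigned probe set and 4 were above background, namely the phosphatase gene Dusp3, the Wnt inhibitor gene Sost, the scaffold gene Mpp3 and the long non-coding RNA 4930417O22Rik. None of the 4 passed, and their changes ran from 0.024 for 4930417O22Rik to 0.29 for Mpp3 (adjusted p = 0.4), none at an unadjusted p of 0.05. Cfap97d1 was below background.

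Aqp1 was at 9.54, 10.19 and 9.71 in the knockout and at 9.92, 10.06 and 10.57 in the control. The groups overlapped widely, each spreading over about 0.65. The log2 change was -0.37 ± 0.20 (adjusted p = 0.4), and it lay between -0.56 without knockout 2 and -0.17 without control 3.

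**Figure D2:**
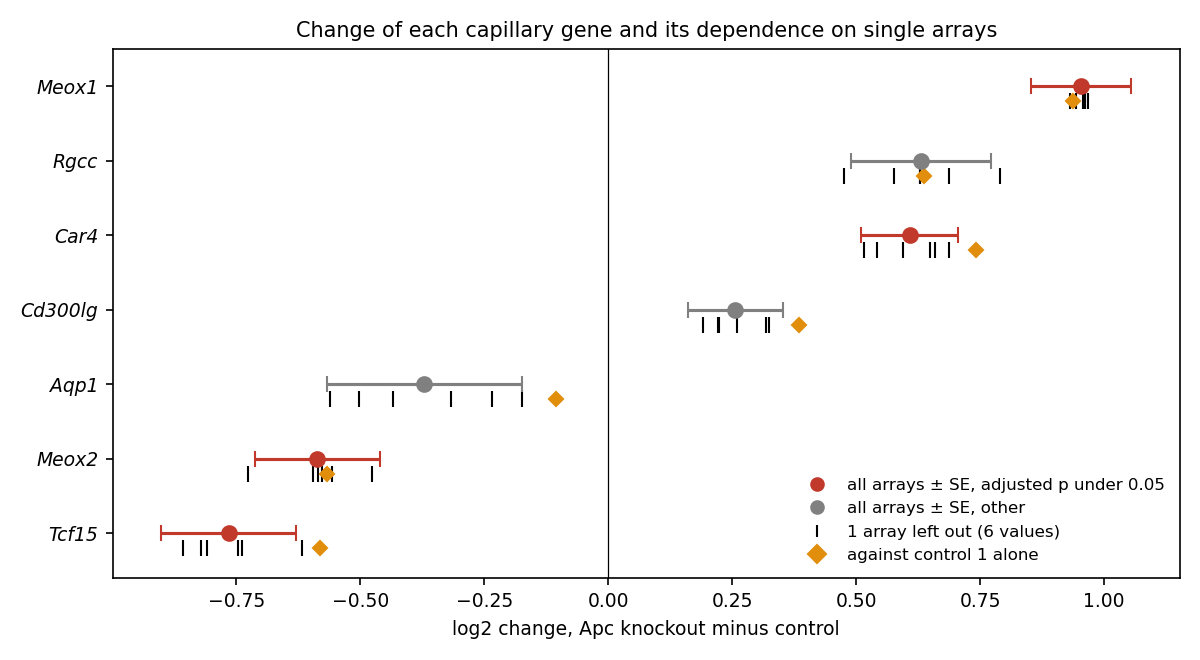
Log2 change (knockout minus control, x axis) of each gene with the SE of the fit over all 6 arrays (circles, red where the adjusted p is under 0.05), with each array left out in turn (ticks) and with control 1 as the lone control (diamonds). The ticks of Meox1 lie between 0.93 and 0.97. No tick or diamond crosses 0 for any of the 7 genes, which could not happen where the groups do not overlap.

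The arrays of 1 group also differed among themselves, and several members did so together. Among the controls, control 3 was the highest array for Tcf15, Car4, Cd300lg and Aqp1. Control 1 was the lowest for these 4 and, within a range of only 0.036, for Meox2. The mean of the arterial genes ran the other way there, at 0.20 above the control mean in control 1 and 0.13 below it in control 3, and so did that of the venous genes (0.26 above and 0.23 below). The means of the other capillary genes (0.035 and -0.031) and of the pan-endothelial genes (0.046 and -0.046) had the same order with smaller deviations. Among the knockouts, knockout 2 was the highest for Car4, Rgcc and Aqp1 and, at only 0.046 above its group mean, for Meox1. Knockout 1 was the lowest for Car4, Rgcc, Cd300lg and Aqp1. Meox2 and Tcf15 were instead highest in knockout 1 and lowest in knockout 3, by 0.28 and -0.22 around the group mean for Meox2 and by 0.089 and -0.052 for Tcf15. The mean of the mural markers had the same highest and lowest knockout array, by 0.14 and -0.19. Among the controls this mean was instead highest in control 1 (0.17), where Meox2 and Tcf15 were lowest. The mean of the enterocyte markers was also lowest in control 1 (-1.14), but highest in control 2 (0.78) and not in control 3 (0.36). Among the knockouts it was highest in knockout 2 and lowest in knockout 1 (0.26 and -0.15). These are descriptions of 3 arrays each, and what the partly shared order comes from was not tested.

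**Figure D3:**
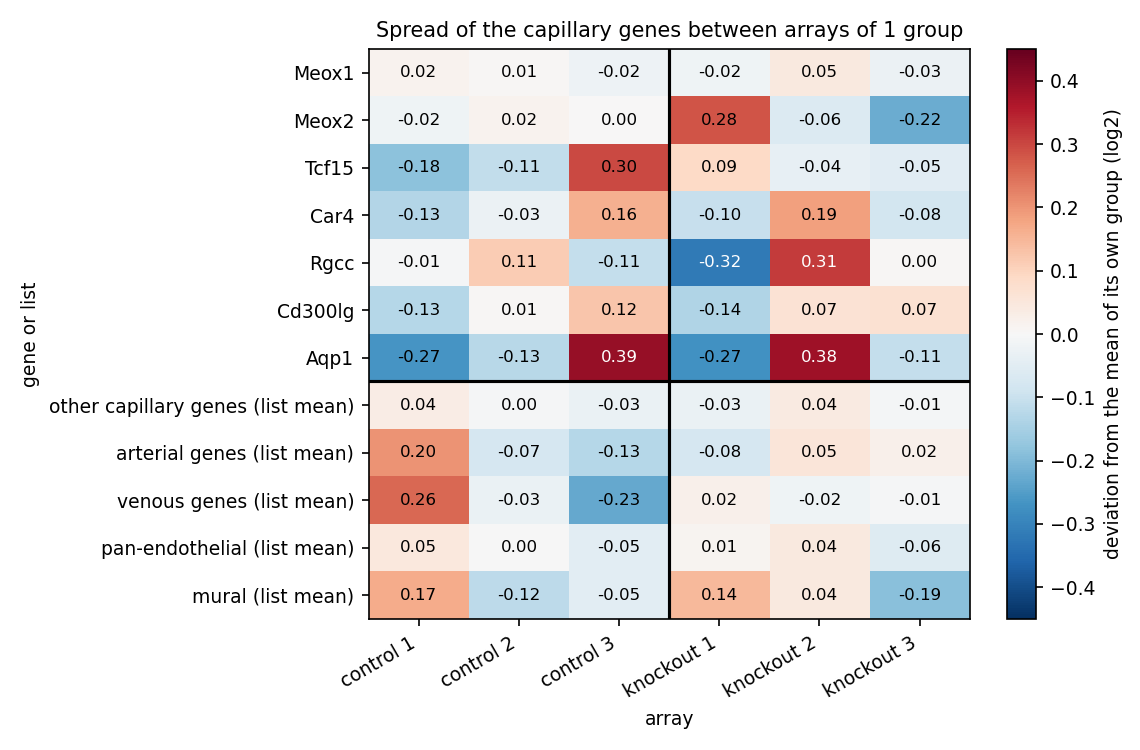
Deviation of each array (columns) from the mean of its own group, in log2 units by colour and number, for the 7 genes and for the means of 5 gene lists (rows). Aqp1 and Tcf15 are high in control 3 (0.39 and 0.30), where the arterial and venous means are low (-0.13 and -0.23).

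Markers of other cells differed between the groups as well. All 15 enterocyte markers measured lay lower in the knockout without overlap, 13 of them called (list mean 5.17 to 5.58 on the knockout arrays and 6.96 to 8.88 on the control arrays). The brightest of them, the fatty acid binding protein genes Fabp2 and Fabp1, changed by -3.29 and -3.57 (adjusted p = 0.00479 and 0.00334). Of 11 mural markers, from pericytes and smooth muscle, 6 were called, all lower (list mean 7.69 to 8.03 against 8.43 to 8.71). Without overlap, 10 lay lower and 1, Abcc9, lay higher (0.49, adjusted p = 0.179). The pericyte gene Rgs5 had a change of -0.70, smooth muscle actin (Acta2) of -0.82 and desmin (Des) of -1.04. Of 13 pan-epithelial and secretory markers 12 were above background and 0 were called by limma, with 8 at an unadjusted p of 0.05 (5.11 to 5.38 against 5.42 to 6.81), and Epcam was below background on all knockout arrays and in control 1. Of 8 fibroblast markers above background 1 was called, Col1a2, which was lower, and of 11 leukocyte markers none was called by limma (3 at an unadjusted p of 0.05). Of 11 erythroid markers 3 had a singly assigned probe set and 1, Slc4a1, was above background, at 4.39 and 4.43 in the group means. Of 4 enteric glia and neuron markers above background 0 were called by limma and 0 had an unadjusted p under 0.05. Of 6 lymphatic markers Lyve1 and Flt4 were called, both higher, while Prox1, which defines lymphatic endothelium, was near background at 4.42 and 4.37. All 12 pan-endothelial genes were above background, and 2 were called, the tight junction gene Cldn5, which fell (-1.28, adjusted p = 0.0137), and the TGF-beta co-receptor gene Eng, which rose (0.26, adjusted p = 0.021). The list had means of 10.38 to 10.49 in the knockout and 10.43 to 10.52 in the control, and Pecam1 (CD31) was at 11.43 in both groups. Apc, deleted in the epithelium and not in the sorted cells, had a change of -0.16 (adjusted p = 0.65), which does not check the labels.

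Against control 1 alone the 7 genes kept their directions, as the 5 whose groups did not overlap had to. Control 1 had the lowest enterocyte and epithelial means of the controls. Its enterocyte mean of 6.96 was still above those of the knockout arrays, and its mural mean of 8.71 was the highest of all arrays. The log2 changes were then 0.94 for Meox1, -0.57 for Meox2, -0.58 for Tcf15, 0.74 for Car4, 0.64 for Rgcc, 0.39 for Cd300lg and -0.11 for Aqp1. None passed with this lone control, which was assumed to vary like the knockout arrays, the smallest adjusted p being 0.0802 for Meox1 and for Car4. The falls of Meox2 and Tcf15 went with lower means of the mural and enterocyte markers, and the part of those cells in the falls was not tested. The rises of Meox1 and Car4 went against both marker lists and with higher Lyve1 and Flt4, 2 of 6 lymphatic markers. The other 4 were not called, and among them Pdpn, which encodes the gp38 that the sort selected against, was at -0.30 (adjusted p = 0.461). The part of lymphatic cells was not tested.

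The genes that work with MEOX2 and TCF15 gave 1 call. Of 12 genes of fatty acid uptake and MEOX function 11 were above background, and 9 had a negative and 2 a positive change (median -0.18). By limma 5 had an unadjusted p under 0.05, among them Cdkn1a with a positive change. Without overlap, 3 lay lower and 0 higher. Only the fatty acid translocase gene Cd36 was called, at 11.72, 11.84 and 11.73 in the knockout and 11.97, 12.04 and 12.02 in the control, a small change of -0.25 ± 0.049 (adjusted p = 0.038). This call was lost without knockout 1, knockout 3, control 2 or control 3. The lipoprotein lipase gene Lpl was at -0.54 (adjusted p = 0.135), and the lipase anchor Gpihbp1 at -0.017 (adjusted p = 0.966). The cell cycle inhibitor gene Cdkn1a, a known target of MEOX factors, was at 0.53 (adjusted p = 0.169).

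Other capillary genes also split in direction. Of 22 measured, 2 rose, 3 fell and 17 were not called, with a median change of -0.011. By limma 13 had an unadjusted p under 0.05, and 6 lay higher and 7 lower without overlap. The endothelin receptor gene Ednrb, which marks the same lung capillary cells as Car4, was at 10.21, 10.48 and 10.46 in the knockout and 9.09, 9.40 and 8.57 in the control. This 2.57-fold rise (1.36 ± 0.18, adjusted p = 0.00933) left the groups well apart. The fatty acid hydroxylase gene Cyp4b1 fell 2.36-fold (-1.24 ± 0.11, adjusted p = 0.00189), from a control mean of 8.20 to 6.96, and the glutamine synthetase gene Glul fell by 0.35 on the log2 scale (adjusted p = 0.021). The other calls, named after their values were seen, were Ramp3, an adrenomedullin receptor subunit (0.67, adjusted p = 0.0234), and the transcription factor gene Tbx3 (-0.59, adjusted p = 0.0237). The count of 5 became 1 without knockout 3, 2 without control 3 and 3 without control 2.

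Genes of larger vessels gave 1 call in each list, where 2.61% of all genes were called. Of 16 arterial genes Cxcl12, a chemokine, was called lower (-0.51, adjusted p = 0.0237) and none was called higher (median -0.057). Without overlap, 5 arterial genes lay lower and 0 higher. Of 14 venous genes Lrg1, an angiogenic glycoprotein, was called higher (0.56, adjusted p = 0.0227) and none was called lower (median 0.016). Without overlap, 3 venous genes lay lower and 2 higher, and 5 had an unadjusted limma p under 0.05. Cpe (-0.83), Vcam1 (-0.64) and Aplnr (-0.57) were the 3 lower ones. The arterial call was lost without control 3 or any knockout array, and the venous call without control 2 or any knockout array. The difference between capillary, arterial and venous lists was not tested.

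Among the families of the members, carbonic anhydrases gave 2 calls of 10 and other aquaporins 1 of 9, where 2.61% of all genes were called. The helix-loop-helix and CD300 lists gave none. Among 14 other helix-loop-helix and MEOX-related factors none was called by limma. Of them 2 had an unadjusted p under 0.05, where 2512 of all 15287 genes did. The 2 were the repressor gene Msc at -0.51 (adjusted p = 0.152) and Tcf21. The E-protein genes Tcf3, Tcf4 and Tcf12, whose products pair with TCF15, had changes of -0.12, 0.065 and -0.019. Of 10 other carbonic anhydrases above background, the mitochondrial Car5b rose 1.73-fold (0.79 ± 0.14, adjusted p = 0.026), with 7.76, 7.71 and 8.14 in the knockout and 7.11, 7.20 and 6.94 in the control. Car3, a cytosolic form abundant in fat and muscle, had a log2 change of -2.99 and fell (adjusted p = 0.0185). Its arrays stood at 3.58, 4.12 and 5.79 in the knockout, the first below and the second at the background level of 4.12, and at 7.96, 7.15 and 7.37 in the control. Car4 thus changed in the direction of Car5b and against Car3. The 2 calls became 1 without control 2 or any knockout array, and neither was made without control 3.

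Of 9 bicarbonate, proton and lactate transporters, which move the products that carbonic anhydrases handle, none was called by limma and 3 had an unadjusted p under 0.05. The chloride and bicarbonate exchanger gene Slc26a3 had the smallest p of these (adjusted p = 0.184), with a knockout mean below background. Of 9 other aquaporins, the glycerol channel gene Aqp7 fell by 1.49 on the log2 scale (adjusted p = 0.00792) and the rest were not called. None of 7 other CD300 family and related genes was called by limma, and 1 had an unadjusted p under 0.05, the immunoglobulin receptor gene Pigr at -1.07 (adjusted p = 0.149).

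Genes that, like Cd300lg, serve L-selectin binding gave 2 rises among 8 measured. Chst2, a sulfotransferase that adds the sulfate groups L-selectin reads, was at 7.46, 7.56 and 7.75 in the knockout and 6.49, 6.48 and 6.58 in the control, with a wide gap between the groups. It rose 2.10-fold (1.07 ± 0.12, adjusted p = 0.00458), and the sialomucin gene Cd34 rose by 0.26 (adjusted p = 0.0468). The list had 1 call and not 2 whichever of the 6 arrays was left out. Of 9 cell cycle and growth genes linked to RGCC none was called by limma (median 0.27), with Tgfbr2, a TGF-beta receptor, at -0.31 (adjusted p = 0.107). Of the 9, 4 had an unadjusted p under 0.05, where 2512 of all 15287 genes did.

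**Figure D4:**
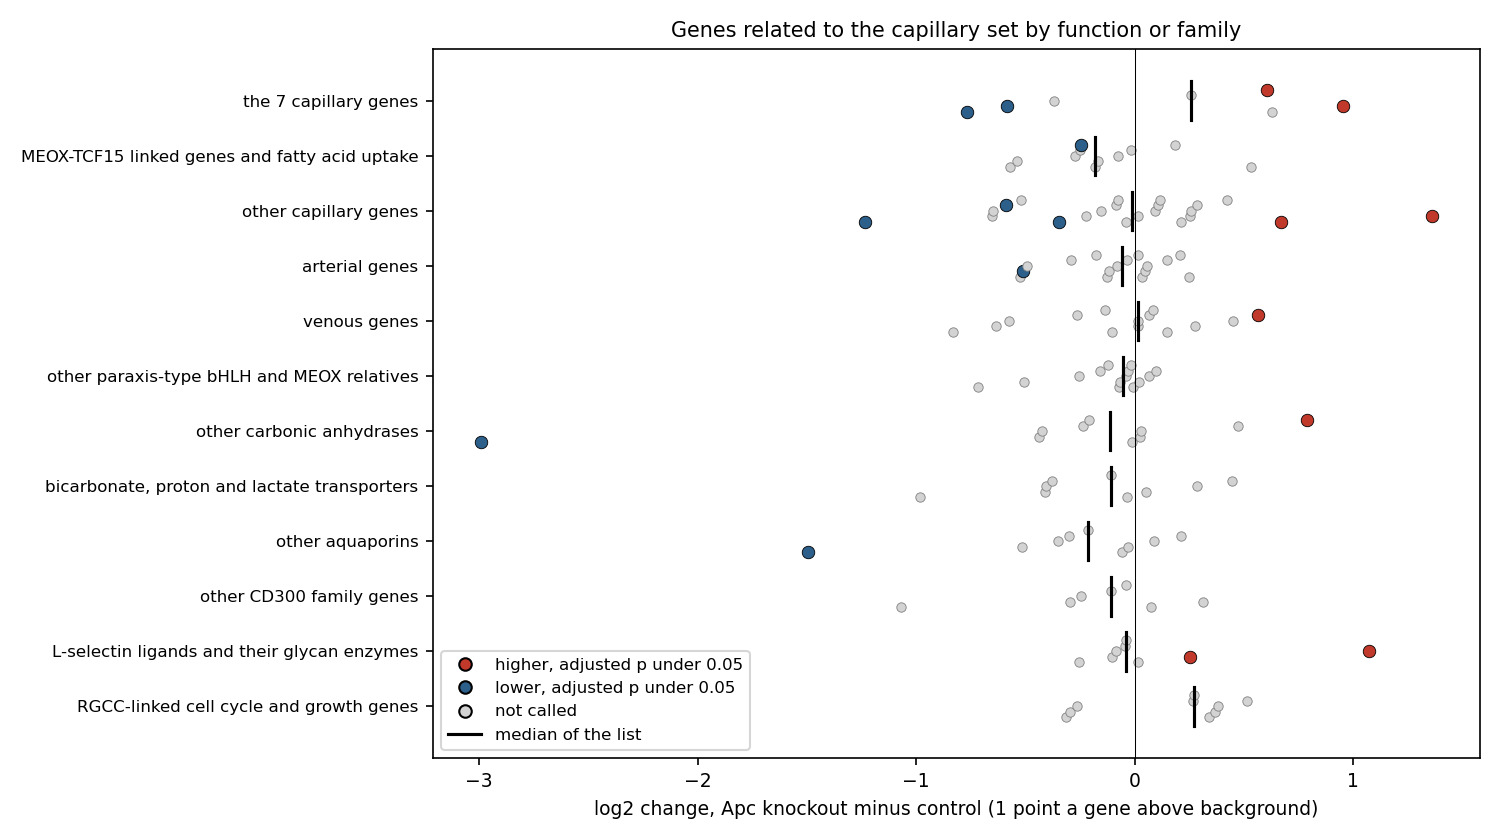
Log2 change (x axis) of every gene above background in the 7-gene set and in 11 lists of related genes (rows), red or blue where the adjusted p is under 0.05, with the median of each row as a bar. Calls lie on both sides of 0 among the 7 genes, the other capillary genes and the carbonic anhydrases, where Car3 is at -2.99.

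The genes whose pattern over the 6 arrays was most like that of each member were found by Pearson correlation of log2 values among all genes tested. Such a correlation includes the difference between the groups. For Meox1 they were Elmo1, an engulfment adaptor (r = 0.999), and Insr, the insulin receptor (r = 0.999), which rose with changes of 0.41 (adjusted p = 0.0389) and 1.25 (adjusted p = 0.000346). For Car4 they were Hpcal1, a calcium sensor (r = 0.988), and Zmiz1, a transcriptional coregulator (r = 0.987). Those nearest to Meox2 were Rab19, a small GTPase, and Pcdh19, a protocadherin (r = 0.994 and 0.992), and those nearest to Tcf15 were Wrn, a DNA helicase, and Ephx3, an epoxide hydrolase (r = 0.993 and 0.989). Rgcc was nearest to the endothelial scavenger receptor gene Scarf1 and to Adgrg1 (r = 0.997 and 0.993), Cd300lg to Cirbp and Ada (r = 0.996 and 0.993), and Aqp1 to another aquaporin gene, Aqp3, and to Samd4 (r = 0.995 and 0.992). Of all these neighbours only Elmo1, Insr, Hpcal1 (adjusted p = 0.025) and Ephx3 (adjusted p = 0.041) were called by limma. With so few arrays high correlations are common: 144 genes had r above 0.95 with Meox1 and 20 with Aqp1.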

How the data were processed

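Each of the 6 arrays (Affymetrix Mouse Gene 2.0 ST) had 1 column of log2 values in the deposited table, made by the authors with RMA of the oligo package, per the submitters' processing notes; versions and genome build are not given in the sources used here. RMA equalises the arrays' distributions, so only relative changes can be seen. Arrays have no read depth, and their number limits the precision. The platform annotation gave 1 symbol to 23521 of 41345 probe sets. The probe set with the highest mean represented a gene. Genes were tested when this mean exceeded a log2 value of 4.12, the level below which 90% of 1432 sensory receptor genes (taste, smell and pheromone) lay. Knockout and control were compared across all genes with limma 3.58.1 in R 4.3.3 (lmFit, eBayes with trend), two-sided, Benjamini-Hochberg adjusted, threshold 0.05, and the procedure was tested on simulated data. Biological replicates are named in the labels. The labels do not say whether replicate numbers pair arrays, and the main comparison did not pair them. Correlations of same-numbered deviations were -0.020, -0.0078 and 0.039, which cannot exclude a pairing.

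The members and lists, the alternatives and the naming rule were chosen with earlier results of these data known. That rule took the 7 members, the called genes of each list (the 3 with the smallest p where over 4), the gene with the smallest p where none was called, the genes between Meox1 and Cd300lg, and the 2 genes most correlated with each member; of the cell type lists it took the 2 brightest genes and that with the smallest p, and most of these are given by their list mean only. Other genes were named after their values were seen. Plots used matplotlib 3.10.9 in Python 3.11.15.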

Additional observations from a re-analysis of the deposited data

How the results depend on the processing

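None of the 7 genes changed direction under 18 alternatives to the processing (126 values). These alternatives covered the background filter, normalization, probe sets, variance model, array weights, a replicate block and single arrays. Those of filter, probe sets, variance model and block left each member's log2 change as it was. Its direction could not change there, nor, for the 5 members whose groups did not overlap, with arrays left out. Only the 4 members called above could lose a call, which happened in 23 of their values. Calls were gained in 4 values, all 4 for Rgcc. Meox1 stayed called in 17 of 18, Car4 in 14, Tcf15 in 11 and Meox2 in 7. Without the variance trend 139 genes and 1 member were called, and with control 1 as the lone control 52 genes and 0 members by limma; the cause was not tested, though the latter leaves fewer arrays. An adjusted p of 0.1 gave 768 genes and one of 0.01 gave 68 genes and 1 member. With single arrays left out, 91 to 379 genes and 1 to 4 members were called, and Meox1 minus Meox2 lay between 1.44 and 1.69. With the replicate number as a block, 394 genes and 4 members were called, Rgcc in (adjusted p = 0.0312) and Meox2 out (adjusted p = 0.0541), and the Meox1 minus Meox2 difference was 1.54. Counts in the context lists stayed within 1.5 times in 152 of 198 values, fell in 44 and rose in 2. Lists with no call above count among the 152 where they stayed so, and their counts could not fall.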
